A study of Homo sapiens with 4 samples.

Results

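The locus of microRNA-210 and 5 genes known as its targets, mostly of mitochondrial metabolism, were described under the prolyl hydroxylase inhibitor FG-4592 (roxadustat). The cells were HK2, a line of immortalized proximal tubule cells of human kidney. The set held 7 genes, taken by their names from the 58288 genes of the RNA-seq tables: *MIR210* and its host gene *MIR210HG* form the locus, and *ISCU*, *GPD1L*, *SDHD*, *COX10* and *NDUFA4* are the targets. The series examined here comprised 2 RNA-seq libraries and 2 HIF1α ChIP-seq libraries, all of which carry the label of FG-4592 treatment, given at 50 μM from a stock in DMSO, and the methods give 6 h of treatment for the RNA-seq and the same treatment for the ChIP-seq. Untreated libraries were not analysed here. Each value is therefore a level under FG-4592, and no response to the compound was computed. The sources do not say whether the replicates came from separate cultures, and the SDs below may be technical.

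HIFα proteins are hydroxylated by oxygen-dependent prolyl hydroxylases and then degraded, and inhibition of these enzymes lets HIF1α accumulate and bind DNA together with ARNT at short hypoxia response elements. *MIR210* is among the best known HIF1α target genes, and the mature miR-210-3p lowers mRNAs that carry matches to its seed in their 3′ untranslated regions, several of which encode proteins of iron-sulfur cluster assembly and the respiratory chain. In the renal tubule, where energy comes mainly from mitochondrial oxidation, this microRNA is one of the links between hypoxia signalling and respiration.

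The RNA-seq tables list the *MIR210* precursor only, and neither mature strand was measured. Both strands are shown because matches to the seed of miR-210-3p are sought in the targets below. The sequences are those of RefSeq on GRCh38.p14, minus strand of chromosome 11, with the seed (bases 2 to 8) in capitals, and of the 2545 mature human microRNAs in the same table miR-210-3p alone carried its seed.
hsa-miR-210-3p, chr11:568112-568133: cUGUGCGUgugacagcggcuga
hsa-miR-210-5p, chr11:568150-568171: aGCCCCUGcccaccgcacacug
The hairpin that holds them is given with both mature strands in capitals, since this is the stretch whose read depth is reported as *MIR210*.
MIR210 hairpin, chr11:568089-568198: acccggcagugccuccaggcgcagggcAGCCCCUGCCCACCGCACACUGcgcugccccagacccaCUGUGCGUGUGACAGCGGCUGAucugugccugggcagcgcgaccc

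The stretch covered by HIF1α peaks of both ChIP-seq replicates at *MIR210HG* was 267 bp long and lay on GRCh37 at chr11:568519-568785, outside annotated genes. It is shown on the minus strand, the strand of *MIR210* and *MIR210HG*, with matches to the core of the hypoxia response element in capitals. The core was sought as ACGTG or GCGTG on both strands, and matches that overlap, such as the pair made by a palindrome, were each counted.
MIR210HG shared peak region: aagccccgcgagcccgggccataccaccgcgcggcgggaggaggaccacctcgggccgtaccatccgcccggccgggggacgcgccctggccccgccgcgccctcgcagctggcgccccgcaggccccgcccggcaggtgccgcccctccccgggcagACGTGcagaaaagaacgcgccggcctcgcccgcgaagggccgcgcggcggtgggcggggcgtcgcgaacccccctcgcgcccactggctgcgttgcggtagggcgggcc
It held 1 core, was 81.3% G and C, and contained 44 CG dinucleotides.

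The ChIP-seq lists differed before any gene was considered. Replicate 1 held 1689 peaks and replicate 2 held 16953. Exons made up 32.9% of the bases under replicate 1 peaks and 84.5% of those under replicate 2 peaks, and 64.5% of replicate 2 peaks lay wholly in exons against 11.7% in replicate 1. A peak of the other list was overlapped by at least 1 bp by 344 peaks of replicate 1 (20.4%) and by 332 of replicate 2 (1.96%). A core was present in 89.3% of the 1661 searched peaks of replicate 1 and in 48.8% of the 16648 of replicate 2. The replicate 2 list therefore stood apart, and each ChIP-seq result is given for the lists separately.

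The cell identity of the RNA-seq libraries was checked on marker genes. Of 8 proximal tubule markers, *GGT1* (62.3 and 58.5 FPKM in replicates 1 and 2) and *SLC5A2* (2.59 and 1.70 FPKM) reached a mean of 1, while *LRP2* and *SLC22A6* were listed at 0 in both libraries and *CUBN*, *SLC34A1*, *AQP1* and *ANPEP* were below 0.1 in each. FPKM is a fragment number divided by the length of the transcript and by the mapped fragments of its library. The epithelial markers *KRT8*, *KRT18*, *KRT19* and *EPCAM* summed with *CDH1* to 437 and 433 FPKM, led by *KRT19*. *CDH1*, the gene for E-cadherin, was low, with 0.211 and 0.379 FPKM, so 4 of the 5 epithelial markers reached a mean of 1. Markers of podocytes, thick ascending limb and collecting duct were listed at 0 in both libraries. The endothelial pair *CDH5* and *VWF* summed to 0.0254 and 0 FPKM, and the 3 leukocyte markers to 0.573 and 0.546 FPKM, all of it from *CD14*. Of the 3 fibroblast genes, *COL1A1* reached 38.7 FPKM in each library, and *PDGFRB* and *DCN* stayed below 0.5. The libraries thus held epithelial keratins, with little *CDH1* and few of the transporters that define the proximal tubule.

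All 7 genes had a mean FPKM of at least 1, a level reached by 23.8% of the 55862 genes found in both annotations and by 59.6% of the 19659 protein-coding genes among them. Genes that passed this level are called expressed below. The tables hold no read counts, and depth times length over all transcripts came to 4442 and 4202 Mb in the 2 libraries. The aligned bases implied by the FPKM values were more, 5527 and 5207 Mb. *NDUFA4* stood highest, *SDHD* and *ISCU* next, *COX10* and *MIR210HG* in the middle, and *GPD1L* and *MIR210* lowest. In this order, *SDHD* and *ISCU* overlapped between libraries, as did *GPD1L* and *MIR210*, while the other neighbours did not overlap. The separation was narrow for *NDUFA4* over *SDHD*, whose nearest values were 32.8 and 31.7 FPKM, and for *COX10* over *MIR210HG*, whose nearest values were 7.35 and 7.24 FPKM. With only 2 libraries of a single treatment, no test of this order was run. In bulk RNA, fewer expressing cells and less RNA per cell cannot be told apart.

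**Figure D1:**
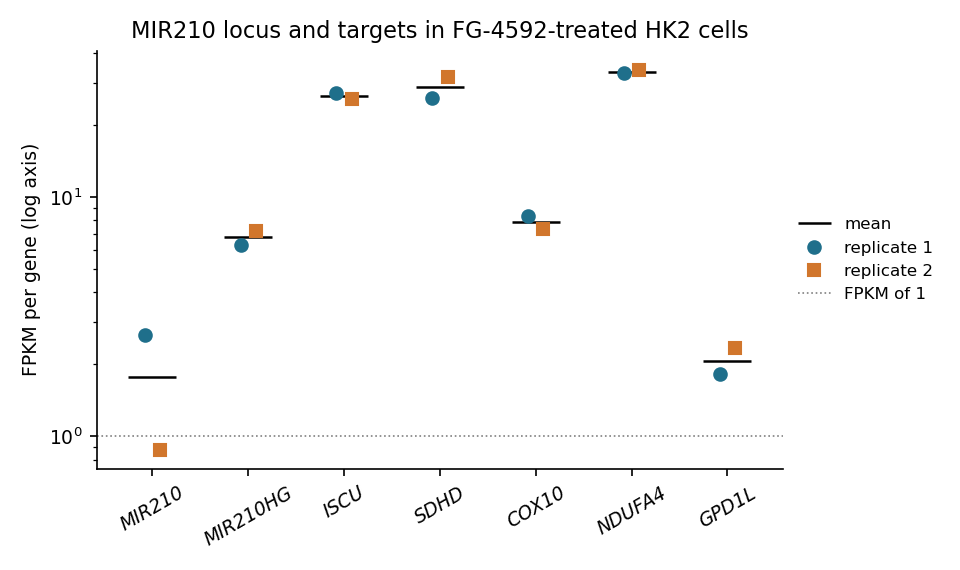
FPKM of each gene (vertical log axis) in the 2 RNA-seq libraries of FG-4592-treated HK2 cells, with circles for replicate 1, squares for replicate 2 and a bar at their mean. *NDUFA4*, *SDHD* and *ISCU* lie above 25 FPKM, and *MIR210* is the gene with the widest gap, from 2.66 to 0.880 FPKM across the dotted line at an FPKM of 1.

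*MIR210HG*, the long noncoding RNA from which the microRNA is cut, had 6.31 FPKM in replicate 1 and 7.24 in replicate 2 (6.77 ± 0.659, SD, n = 2). It ranked 3 of 82 measured microRNA host genes by mean FPKM, after *MIR4435-2HG* (20.9 and 19.3 FPKM) and *MIR503HG* (18.9 and 19.0 FPKM), and 32 of the 82 were listed at 0 in both libraries. The gene therefore belonged to the more abundant transcripts of its class in these cells. Its 4 transcripts in the tables were led by ENST00000533920, a spliced form of 2 exons with 4.10 and 5.35 FPKM, 65.0% and 73.9% of the gene. The longer ENST00000500447 followed with 1.58 and 1.73 FPKM. The leading form was not evenly covered: its exon of 710 nt had a mean depth of 25.3 and 31.0 reads per base, and its first exon of 106 nt had 4.94 and 6.54.

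*MIR210* itself had 2.66 FPKM in replicate 1 and 0.880 in replicate 2 (1.77 ± 1.26, SD, n = 2), so the SD was large beside the mean. The value rested on a stretch of 110 nt with a mean depth of 14.7 and 4.58 reads per base, which needs at least 15 reads in replicate 1 and 5 in replicate 2. The precursor was thus the least securely measured gene of the set. It ranked 10 of 1174 annotated microRNA genes in replicate 1 and 32 in replicate 2, and 79.3% of these genes were listed at 0 in both libraries. Among the 4174 genes with a mean FPKM of 1 to 5, 1.53% differed between the libraries by at least as much as *MIR210* on the log2(FPKM + 1) scale, whose log2 ratio of replicate 2 to replicate 1 was -0.96. Among the 31 expressed microRNA genes, 2 did, *MIR210* included, and the median absolute log2 ratio over the 31 was 0.43.

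The hairpin lay inside an intron of *MIR210HG* in each of the 4 transcripts of the tables and in each of the 9 transcripts of GENCODE 44. In the leading transcript, 153 intron bases separated it from the first exon and 235 from the next. Its depth was 0.648 times the mean depth of that transcript in replicate 1 and 0.165 times in replicate 2. The host gene and the hairpin differed between the libraries in opposite directions, with the host higher in replicate 2 and the hairpin higher in replicate 1. Reads over the hairpin cannot be told apart from reads of unspliced host RNA, and these values say nothing of the mature microRNA.

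HIF1α peaks lay at the locus in both replicates. The replicate 1 peak ran over chr11:568373-569141 on GRCh37, 769 bp that reached 85 bases into the first exon of *MIR210HG*. The replicate 2 peak, 267 bp at chr11:568519-568785, lay inside it, 62 bp upstream of the outermost start site and free of exon bases. *MIR210HG* (chr11:565657-568457, minus strand) and *MIR210* (chr11:568089-568198, minus strand) share this single region, so it counts for both genes but is 1 region. Its near edge lay 175 bp upstream of the hairpin in replicate 1 and 321 bp in replicate 2. The replicate 1 peak was wide for its list: 19 of 1689 peaks (1.12%) were at least as wide, where the median was 325 bp. The replicate 2 peak was narrower than the median of its list, 404 bp.

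**Figure D2:**
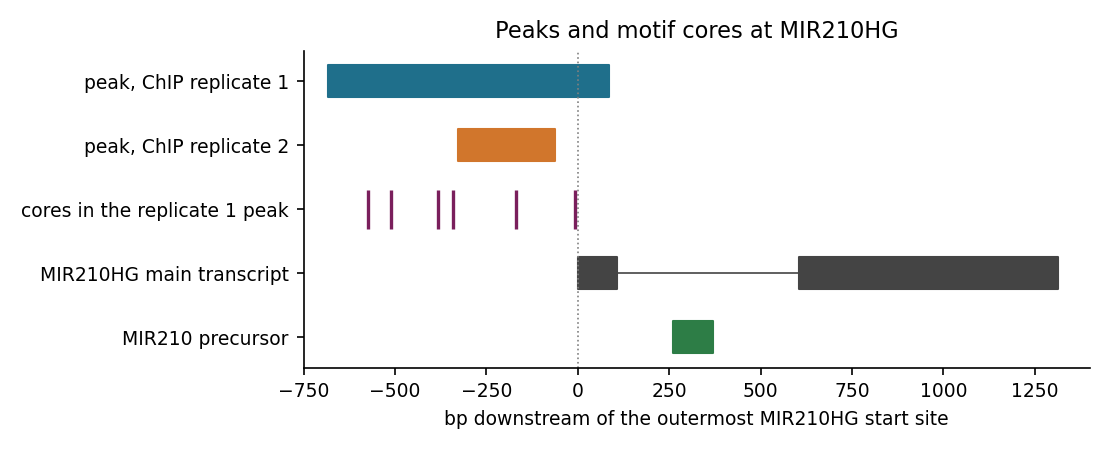
Map of the locus in bp downstream of the outermost *MIR210HG* start site (dotted line, negative values upstream), with the peak of each ChIP-seq replicate, the cores inside the replicate 1 peak as ticks, the exons of the leading *MIR210HG* transcript as boxes, and the hairpin. The replicate 2 peak falls within the replicate 1 peak and covers 1 of its 6 cores, and the hairpin lies in the intron.

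The replicate 1 peak held 6 cores and the replicate 2 peak 1. The shares of peaks with at least 1 core, 89.3% and 48.8%, are those of the whole lists. Of 1661 replicate 1 peaks, 155 (9.33%) held 6 or more, a comparison that did not account for width or base content. The replicate 1 peak spanned 769 bp, against a list median of 325 bp, and was 80.1% G and C. The cores of the replicate 1 peak were centred 7, 168, 340, 383, 511 and 575 bp upstream of the outermost start site. The core shared by both peaks was the ACGTG printed in the region above, centred 27 bp from the middle of the replicate 2 peak and 132 bp from that of replicate 1. Within 100 bp of the peak middle, replicate 1 held 2 cores and replicate 2 held 1. The 300 bp RefSeq promoter of *MIR210HG* shared 189 bp with the region and held 2 cores, 170 and 9 bases before the start.

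No target gene had a promoter peak in either list. A promoter peak was a peak that overlapped the window of 1 kb on either side of any annotated start site. Promoter peaks were found at 2 of the 7 genes in replicate 1, against 2.50% of all 55862 genes, at 2 of 7 in replicate 2, against 9.72%, and at the same 2 in both, against 0.779%. The 2 genes were *MIR210* and *MIR210HG* with their shared region, and among expressed genes the same shares were 8.14%, 20.8% and 2.68%. Of 1174 microRNA genes, 4 (0.341%) had a promoter peak in both replicates, and the other 3 had at most 0.245 FPKM in either library.

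In replicate 1, the nearest peak to a start site of *SDHD* was 149629 bp away, that of *ISCU* 289762 bp, that of *COX10* 1734687 bp, that of *NDUFA4* 1746302 bp and that of *GPD1L* 6006112 bp. The median over expressed genes was 290100 bp, so *SDHD* was nearer than the median, *ISCU* was at it and the other 3 were far beyond it. For *GPD1L*, 99.0% of expressed genes had a nearer peak.

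In replicate 2, 3 of the 5 target genes had a peak within the gene, and all of these peaks were wholly exonic. A peak within the gene was found at 51.0% of expressed genes and 53.3% of expressed protein-coding genes in this list, so 3 of 5 is near the share of expressed genes in general. At *ISCU* the peak chr12:108962650-108963044 lay in the last exon and over most of its 3′ untranslated region, 1016 bp from an internal annotated start site. At *SDHD* the peak chr11:111965533-111966387 lay in the exon that holds the 3′ untranslated region. At *COX10* the peak chr17:14110303-14110695 spanned the end of the coding sequence and the beginning of the 3′ untranslated region of the leading transcript. *GPD1L* and *NDUFA4* had none, and their nearest replicate 2 peaks were 100715 and 42413 bp from a start site, again wholly in exons of other genes. Replicate 1 had no peak within any of the 5 genes, where 8.37% of expressed genes had one.

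**Figure D3:**
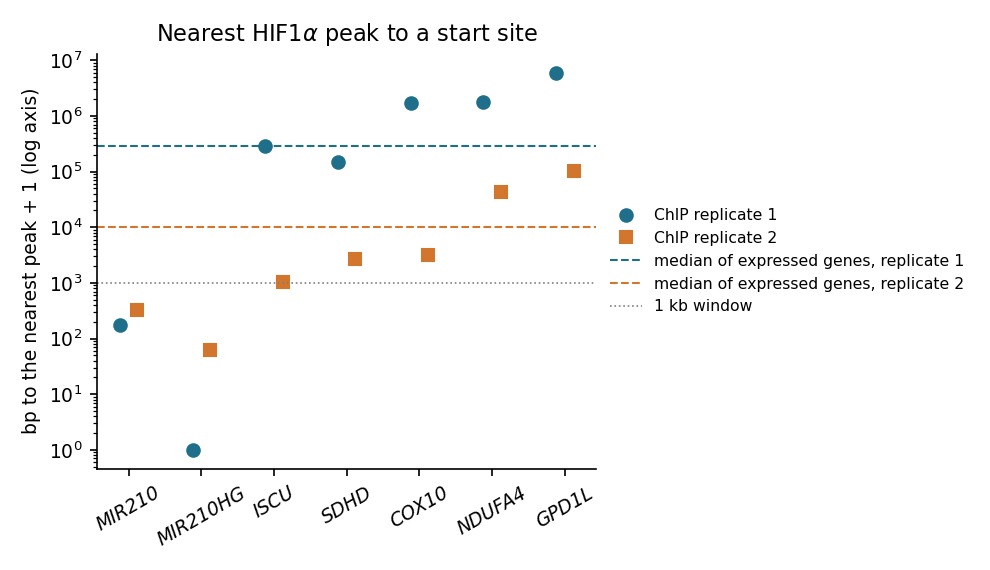
Distance in bp from the nearest start site of each gene to the nearest HIF1α peak, plus 1 (vertical log axis), with circles for ChIP replicate 1 and squares for replicate 2. Dashed lines mark the median of expressed genes (290100 and 10013 bp), and *MIR210* and *MIR210HG* alone lie under the dotted line of the 1 kb window.

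*ISCU*, the scaffold on which iron-sulfur clusters are built, had 27.1 FPKM in replicate 1 and 25.5 in replicate 2 (26.3 ± 1.09, SD, n = 2), with ENST00000311893 at 19.1 and 19.2 FPKM. It ranked 3 of 17 measured iron-sulfur assembly genes. The leading transcript was thus nearly equal in both libraries, and the difference in the gene came from its minor transcripts. *SDHD*, a membrane anchor subunit of succinate dehydrogenase (complex II), had 25.8 and 31.7 FPKM (28.8 ± 4.17, SD, n = 2). Its leading transcript ENST00000375549 had 18.4 and 30.3 FPKM, 1.65 times as much in replicate 2, while ENST00000528182 had 7.01 FPKM in replicate 1 and was listed at 0 in replicate 2. The ratio for the gene was 1.23, so the division among transcripts moved more between the libraries than the gene did. A second gene identifier carries the same name in the tables, a gene overlapping *SDHD*, with 0.0707 and 0.853 FPKM. It was kept apart, and with it the sum was 25.9 and 32.6 FPKM.

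*COX10*, the enzyme that farnesylates heme on the way to the heme A of cytochrome c oxidase (complex IV), had 8.36 and 7.35 FPKM (7.86 ± 0.713, SD, n = 2), of which ENST00000261643 gave 80.4% and 82.3%. *NDUFA4*, a protein of complex IV that was first assigned to complex I, had 32.8 and 34.0 FPKM (33.4 ± 0.831, SD, n = 2). The ratio of replicate 2 to replicate 1 was 0.879 for *COX10* and 1.04 for *NDUFA4*. In *NDUFA4* the transcript ENST00000482299, annotated as a retained intron, had 1.5 and 4.47 FPKM and the leading coding transcript ENST00000339600 had 30.5 and 29.0. *GPD1L*, a relative of the cytosolic glycerol-3-phosphate dehydrogenase, had 1.81 and 2.33 FPKM (2.07 ± 0.364, SD, n = 2). Its full-length ENST00000282541 had 1.08 and 2.10 FPKM, a ratio of 1.94, against a ratio of 1.28 for the gene. Among genes with a mean FPKM of 1 to 5, 32.2% differed between libraries by at least as much as *GPD1L* on the log2(FPKM + 1) scale.

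Over the 7 genes, log2 ratios (replicate 2 over replicate 1, pseudocount 1) had a median of 0.05, beside 0.01 over expressed genes. The ratios ran from -0.96 for *MIR210* to 0.29 for *SDHD*. Processed copies of members that could share reads were low: the highest of 6 *SDHD* copies had 0.386 FPKM, the higher of 2 *NDUFA4* copies 0.234, and the *ISCU* copy was listed at 0.

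**Figure D4:**
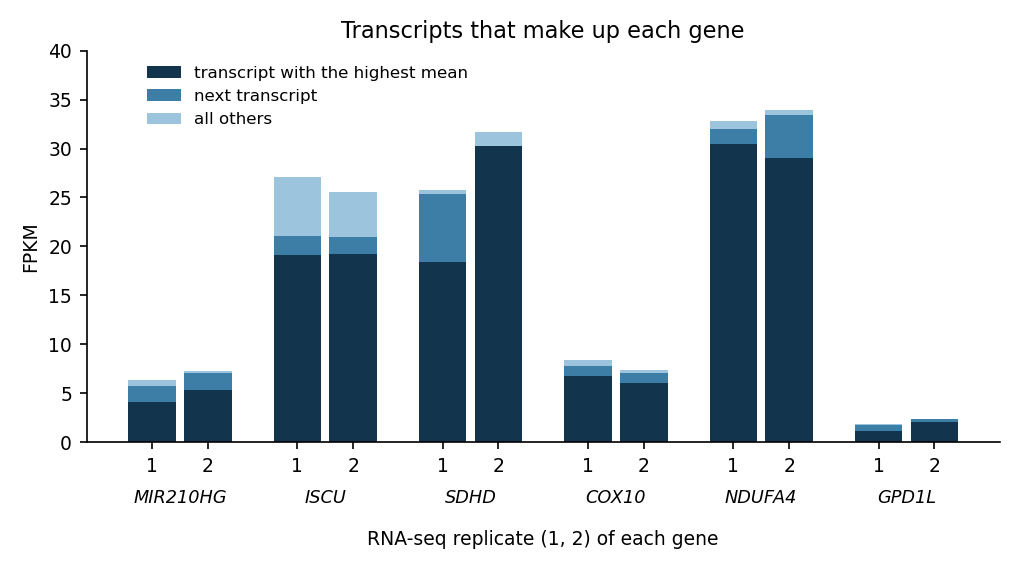
FPKM of the annotated transcripts that add up to each gene, in RNA-seq replicates 1 and 2, with the transcript of the highest mean in dark blue, the next in mid blue and all others in light blue. The *SDHD* bar of replicate 1 is divided between transcripts of 18.4 and 7.01 FPKM, and that of replicate 2 is almost all 1 transcript of 30.3 FPKM.

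The 5 targets were examined for sites that pair with the seed of miR-210-3p. A match was ACGCACA, the complement of bases 2 to 8, in the sense strand of any 3′ untranslated region of a protein-coding transcript. Of the 5 genes 3 held a match, *ISCU*, *GPD1L* and *COX10*, where 3.56% of 19307 protein-coding genes did. The genes were chosen as known targets, so the count describes the annotation and supports nothing. The match of *ISCU* was followed by the A that faces base 1 of the microRNA, a form of 8 letters (ACGCACAA) found in 0.596% of the protein-coding genes. *SDHD* and *NDUFA4* held the shorter CGCACA, the complement of bases 2 to 7, which 9.82% of the genes did. The windows are given on GRCh37 with the matched letters in capitals, on the strand of the gene, to show how the sites differ in length of match.
ISCU, chr12:108962788-108962817, plus strand: gaagagctatgagatACGCACAAtacttgc
GPD1L, chr3:32209019-32209048, plus strand: gtcagctttgctgaaACGCACAttacctgg
COX10, chr17:14110864-14110893, plus strand: ttaccaccacaccacACGCACActccacat
SDHD, chr11:111966410-111966439, plus strand: ataaattgttattttCGCACAatgggaatc
NDUFA4, chr7:10973192-10973221, minus strand: tccagaagccacatcCGCACAattttccac
The *ISCU* match lay 111 bases into the untranslated region of 452 nt of its leading transcript, that of *COX10* 349 bases into 1464 nt, and that of *GPD1L* 1632 bases into 2799 nt. All 3 were in the untranslated region of the transcript with the highest FPKM. The *ISCU* site fell inside the replicate 2 peak over the last exon, and the *COX10* site lay 184 bp from the replicate 2 peak there. The genes with a match had levels from 2.07 FPKM (*GPD1L*) to 26.3 (*ISCU*), and those with the shorter match 28.8 (*SDHD*) and 33.4 (*NDUFA4*). Whether level goes with the length of the match was not tested. No untreated library was analysed, the mature microRNA was not measured, and *SDHD* and *ISCU* overlapped between libraries.

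Cores of the hypoxia response element were present in promoters without a peak. Of the 7 genes, 6 had an entry in the RefSeq promoter table (GRCh38.p14), 250 bases before to 50 after the start. A core was found in 4 of these 6, *MIR210HG*, *ISCU*, *GPD1L* and *COX10*, where 48.4% of all 35116 promoters held one, so the share is near that of promoters in general. The following stretches show a core, GCGTG or ACGTG, at the locus with a peak and at targets without a promoter peak. Capitals mark the core, which is on the opposite strand at *COX10*. The *MIR210HG* core shown here lay in the replicate 1 peak and outside the replicate 2 peak, and the core inside both peaks is the ACGTG in the shared region.
MIR210HG, 9 bases before the start, chr11:568444-568484, minus strand: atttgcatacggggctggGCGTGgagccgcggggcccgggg
ISCU, 109 bases before the start, chr12:108562469-108562509, plus strand: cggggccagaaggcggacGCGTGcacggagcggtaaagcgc
GPD1L, 175 bases before the start, chr3:32106427-32106467, plus strand: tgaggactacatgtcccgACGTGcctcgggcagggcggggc
COX10, 45 bases before the start, chr17:14069441-14069481, plus strand: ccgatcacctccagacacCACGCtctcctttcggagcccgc
*SDHD* and *NDUFA4* held no core in this window.

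The genes that work with the members were taken as lists, and their promoter peaks are to be read beside the shares over expressed genes, 8.14% in replicate 1 and 20.8% in replicate 2. All 17 iron-sulfur assembly genes had a mean FPKM of at least 1, with a median of 9.67. *HSPA9*, the mitochondrial Hsp70 (90.8 and 92.1 FPKM), and *NDUFAB1* (31.1 and 29.8) were highest, and *IBA57* (4.33 and 3.74) was among the lowest. In replicate 1 a promoter peak was found at 4 of the 17, *HSPA9*, *BOLA3*, *NFS1* and *IBA57*, where 8.14% of expressed genes had one. In replicate 2 it was found at 1, and at none in both. *NFS1*, the desulfurase that gives sulfur to the *ISCU* scaffold, had 11.2 and 16 FPKM, and its replicate 1 peak held no core, while the peak at *IBA57* held 14. *ISCU* was among the 13 genes of the list without a promoter peak in replicate 1.

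The 8 complex II genes also all reached a mean FPKM of 1 (median 11.4), with *SDHB* (55.2 and 52.2 FPKM) and *SDHA* (42.1 and 46.9) highest and the assembly factors *SDHAF3* (4.75 and 6.11) and *SDHAF4* (2.89 and 2.93) lowest. *SDHD* ranked 3 of the 8. *SDHAF3* had the list's only promoter peak, in replicate 1. Of 16 nuclear genes for complex IV subunits, 12 reached a mean FPKM of 1 (median over the list 41.3). *COX6A1* (238 and 222 FPKM) and *COX8A* (144 and 139) were highest, *COX6B2* had 0.198 and 0.381 FPKM, and *COX4I2* was listed at 0 in both libraries. *NDUFA4* ranked 10 of the 16. Promoter peaks in this list were 1 in replicate 1, at *COX6A2* (2.77 and 2.47 FPKM), and 2 in replicate 2.

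All 21 complex IV assembly genes reached a mean FPKM of 1 (median 17.3), from *SCO2* (1.12 and 1.43 FPKM) and *CMC1* (2.45 and 3.92) to *LRPPRC* (31.4 and 30.9) and *COA3* (38.2 and 34.1), with *COX10* at rank 14. *COX20*, a chaperone of a mitochondrially encoded subunit, was the one gene of these lists beside *MIR210HG* with a promoter peak in both replicates, and had 18 and 20.6 FPKM. Its replicate 1 peak, chr1:244998403-244999012, held 3 cores, and its replicate 2 peak, chr1:244998505-244998798, held 2 and no exon base. *PET117* (5.40 and 6.93 FPKM) had a promoter peak in replicate 1 only. Of the glycerol-3-phosphate dehydrogenases, the mitochondrial *GPD2* (8.65 and 8.76 FPKM) exceeded *GPD1L* in both libraries and had a promoter peak in replicate 1, and the cytosolic *GPD1* had 0.145 and 0.304 FPKM.

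**Figure D5:**
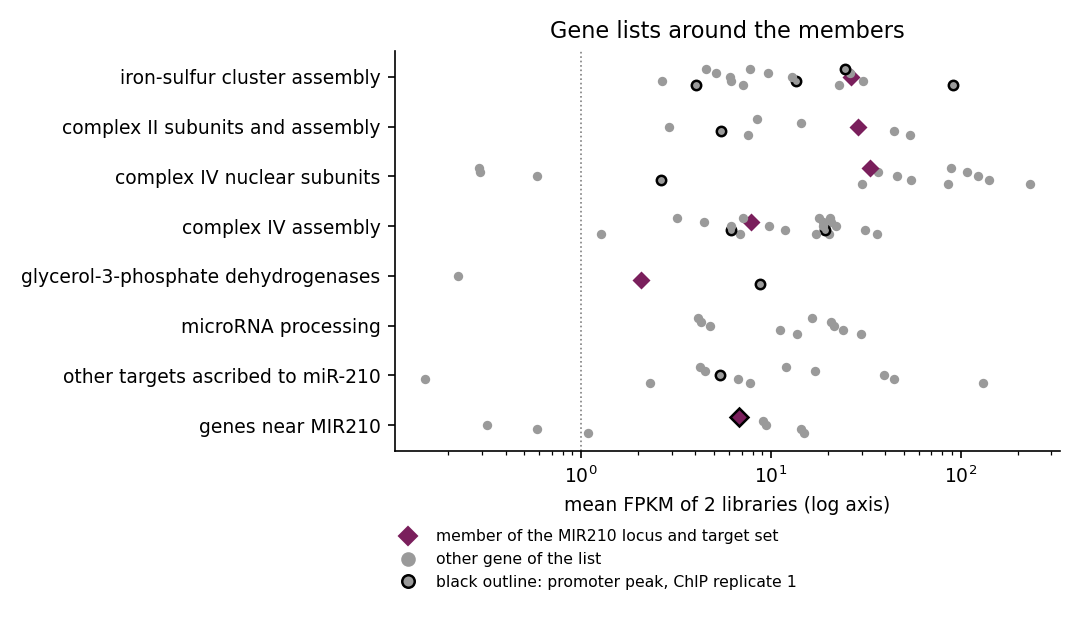
Mean FPKM of 2 libraries (horizontal log axis) for the genes of 8 lists, with members of the microRNA-210 set as purple diamonds, other genes in grey and a black outline for a promoter peak in ChIP replicate 1. Of the diamonds *MIR210HG* alone has an outline, and the genes listed at 0 in both libraries, *COX4I2* and 1 near *MIR210*, are not drawn.

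The machinery that processes and loads microRNAs was expressed: all 10 genes had a mean FPKM of at least 1 (median 15.1), from *AGO3* (4.22 and 4 FPKM) and *AGO1* (3.62 and 4.93) to *DGCR8*, the partner of Drosha (23.1 and 24.7), and *XPO5*, the exporter of precursors (30.4 and 29.3). None had a promoter peak in replicate 1, against 8.14% of expressed genes, and 5 had one in replicate 2, against 20.8%, each wholly in exons. Of 12 other genes ascribed to miR-210 as targets, 11 reached a mean FPKM of 1. *HOXA9* (131 FPKM in each library) and *PTPN1* (44.8 and 43.9) were highest, and *NPTX1* (0.196 and 0.106) was lowest. A seed match of 7 letters was found in 6 of the 11 with an annotated untranslated region, beside 3.56% of protein-coding genes, and since these genes too were chosen as ascribed targets the count supports nothing. *EFNA3*, an ephrin (5.86 and 4.94 FPKM), had the only promoter peak of this list, in replicate 1, with 4 cores.

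Around the hairpin, 10 annotated genes started within 50 kb, and 9 of them were in the tables. *LMNTD2* (0.734 and 0.432 FPKM), *RASSF7* (10.2 and 8.63) and *LMNTD2-AS1* (0.244 and 0.392) started 7.35, 7.69 and 10.5 kb downstream, and *PHRF1* (15.5 and 13.4) 8.27 kb upstream. *LRRC56* (1.24 and 0.942), *HRAS* (14.2 and 15.8) and *IRF7* (9.52 and 8.71) were farther away, and 1 unnamed noncoding gene was listed at 0. *MIR210HG* was 5 of 9 by mean FPKM, so the neighbourhood held genes of higher level on both sides. Replicate 1 had a single peak within 50 kb of the hairpin, the one at *MIR210HG*. Replicate 2 had 5, and that at *MIR210HG* was the only one of them without exon bases. *RASSF7* and *LMNTD2* had promoter peaks in replicate 2 and none in replicate 1. Both peaks were counted through an annotated start site inside the gene, not the outermost one. Exons made up 100% of the peak at *RASSF7* and 90.7% of that at *LMNTD2*. Beyond *MIR210HG*, the microRNA host genes had 1 promoter peak in replicate 1, at *MIR29B2CHG* (0.136 and 0.125 FPKM), and 1 in replicate 2. Of the 82 host genes 15 were expressed, so the shares to set beside these counts are those over all genes, 2.50% and 9.72%.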

How the data were processed

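For the RNA-seq, the authors used HISAT2 for mapping and StringTie 1.3.3 with GENCODE 27 for transcript levels, and the deposited tables give coverage, FPKM and TPM per transcript and no counts. Their coordinates are those of GRCh38, although hg19 is named in the methods. For the ChIP-seq, the authors used Bowtie2 on hg19, retained reads that mapped uniquely and ran MACS2 on each replicate, and the deposited lists give positions only. The depth behind the peaks is unknown.

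FPKM was summed over the transcripts of each Ensembl identifier. Peaks were compared with GRCh37 and GENCODE 44, and expression was joined by identifier, never by position. The peaks on the mitochondrial chromosome and on contigs absent from the genome used were not searched for cores. Untranslated regions were those of transcripts annotated as protein coding. Named genes were the members, the 2 highest and 2 lowest of each list by mean FPKM, those with a promoter peak in replicate 1 or in both replicates, and every gene near *MIR210*, except for items that are not reported here. Of the 3 endothelial markers, *PECAM1* was not found under this symbol. Where more than 2 genes of a list were at 0, no lowest gene was named. The members and lists were chosen with earlier results of these data known. No likeness of pattern was computed over 2 libraries. Alternatives covered the unit, transcript, pseudocount, minimum FPKM, window, start site, motif window, seed length and each replicate left out. The code was tested on simulated data. Python 3.11.15, numpy 2.4.6, pysam 0.24.0 and matplotlib 3.10.9 were used.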

Additional observations from a re-analysis of the deposited data

How the results depend on the processing

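All 7 genes reached a mean of 1 in TPM, with the largest transcript alone and at a minimum of 0.5, and 5 did at a minimum FPKM of 5. Leaving out an RNA-seq replicate gave 6 to 7, because *MIR210* was below 1 in replicate 2. The promoter peaks at *MIR210* and *MIR210HG* were found in both lists with windows of 500 bp, 3 kb and 10 kb, with the outermost start site and with the peak middle. In replicate 2 the count rose to 4 with 3 kb, by *ISCU* and *SDHD*, and to 5 with 10 kb, by *COX10*, through exonic peaks, where 32.5% and 50.0% of expressed genes had a peak. For *SDHD* the peak within 3 kb was chr11:111954443-111954855, in the 3′ untranslated region of *NKAPD1*, 2693 bp from the start site. It is not the peak within *SDHD* described above. With peaks free of exon bases, chosen after seeing the data, the count was 0 in replicate 1 and 0 in both, because the replicate 1 peak reaches into an exon, and 2 in replicate 2. Leaving out a ChIP-seq replicate gives the other list's own count, 2, and says nothing of stability. The median log2 ratio was 0.058 in TPM and 0.0076 with the largest transcript, and the cause was not tested. Within 100 bp of the peak middle the replicate 1 peak held 2 cores. The seed match was found in 5 of 5 targets with 6 letters and in 1 with 8 letters, which follows from the length sought. No paired analysis was possible because no result came from a test between groups. Depth limits *MIR210*, and no value here separates the hairpin from its host's intron.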

Other observations

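*FGFRL1*, a gene ascribed to miR-210 as a target and chosen here after its values were seen, had 27.8 FPKM in replicate 1 and 50.9 in replicate 2, a log2 ratio of 0.85 with a pseudocount of 1, and carried a seed match of 7 letters. Between these libraries, 145 of the 13317 expressed genes (1.09%) had an absolute log2 ratio of at least 1, a level that *FGFRL1* did not reach. The share of genes that differed at least as much as *FGFRL1* was not computed.

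*NDUFA4L2*, a paralog of *NDUFA4* also chosen after its values were seen, had 0.654 and 0.520 FPKM, and its nearest peaks were 381159 bp from a start site in replicate 1 and 2489 bp in replicate 2. In the 3′ untranslated region of *SDHD*, the match of 6 letters lay 38 bp beyond the end of the exonic replicate 2 peak.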
